A study of Mus musculus with 4 samples.

Results

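Gpm6a and Gpm6b are members of the proteolipid protein family, and their transcripts were followed in the 4 libraries of freshly isolated peritoneal mesothelial cells. Both were found by gene symbol, and they make up 2 of the 48425 genes in the deposited table, of which 22936 had a value in at least 1 library. The labels number 4 samples, taken here as 4 animals with 1 library each, so there is 1 group. All were untreated C57BL/6 mice, aged 10 weeks. Mesothelial cells, the sheet that lines the peritoneal cavity, were detached with trypsin and EDTA for 20 min at 37 °C and sorted as CD45- PDPN+ GPM6a+. RNA depleted of ribosomal RNA was then sequenced. GPM6a protein on the cell surface was therefore a condition of the sort, so the level of Gpm6a describes a population chosen for it and there was no GPM6a-negative fraction to set it against. No library of unsorted cells was analysed here. Spread between animals includes any difference in the sort, and in bulk RNA the number of cells of a type and the RNA per cell cannot be told apart.

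The proteolipid proteins cross the membrane several times, with both ends in the cytoplasm, and carry palmitate on cysteines near the membrane. GPM6a (also called M6a) is best known from neurons, where it is an abundant surface glycoprotein that promotes filopodia, neurite growth and synapse formation. GPM6b (M6b) is known from neurons and glia of the brain, and has been linked to the actin cytoskeleton and to trafficking of the serotonin transporter. In the serous cavities, GPM6a serves as a surface antigen for isolating mesothelium.

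In the annotation (GENCODE M21, mouse build GRCm38), Gpm6a (ENSMUSG00000031517) lies on the plus strand of chromosome 8, from 54954843 to 55060871. It has 1 annotated transcript there, of 3215 bases in 7 exons, and the exons fill 3.03% of a span of 106029 bases. Gpm6b (ENSMUSG00000031342) lies on the plus strand of chromosome X, from 166238911 to 166388988, with 12 transcripts of 890 to 4764 bases. The sequences below show how far the coding regions have diverged, since reads are told apart by such differences. The coding sequence of Gpm6a (834 bases without the stop codon) was aligned to the most similar Gpm6b transcript (984 bases). Of 812 aligned bases 553 were identical (68.1%), with 194 gap columns, and the longest identical run was 16 bases. Over the Gpm6b coding transcripts aligned, identity ranged from 65.4% to 68.1%. Only windows of 60 bases without a gap and within 1 exon of each gene were compared. Among them the pair most alike shared 49 bases, and the pair least alike shared 33. Capitals mark bases that differ between the genes.
Gpm6a, most alike, exon 2, chr8:55037330-55037389, plus strand: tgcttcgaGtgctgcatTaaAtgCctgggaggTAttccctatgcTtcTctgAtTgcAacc
Gpm6b, most alike, exon 3, chrX:166372640-166372699, plus strand: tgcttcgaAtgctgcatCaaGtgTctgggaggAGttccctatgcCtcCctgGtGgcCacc
Gpm6a, least alike, exon 4, chr8:55050106-55050165, plus strand: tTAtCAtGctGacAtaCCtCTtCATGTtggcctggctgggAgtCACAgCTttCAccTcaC
Gpm6b, least alike, exon 5, chrX:166379989-166380048, plus strand: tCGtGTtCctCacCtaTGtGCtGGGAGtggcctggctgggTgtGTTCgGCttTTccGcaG
Even in the most alike windows the differences are scattered through the run. Of the 3185 words of 31 bases in the Gpm6a transcript, 0 occurred in the transcripts of any other gene, and the same count was 0 for the 5709 words of Gpm6b. An error-free read that holds such a word could thus not come from an annotated transcript of the other member.

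RefSeq (GRCm38.p6) lists separate start sites for Gpm6a, at 54779434 and at 54954728, which are 175294 bases apart. The downstream one lies 115 bases before the GENCODE start. For Gpm6b it lists 1 start, at 166238943. The 250 bases before each start are printed because these promoters differ in base composition, and capitals mark CpG dinucleotides.
Gpm6a, upstream start, chr8:54779184-54779433, plus strand: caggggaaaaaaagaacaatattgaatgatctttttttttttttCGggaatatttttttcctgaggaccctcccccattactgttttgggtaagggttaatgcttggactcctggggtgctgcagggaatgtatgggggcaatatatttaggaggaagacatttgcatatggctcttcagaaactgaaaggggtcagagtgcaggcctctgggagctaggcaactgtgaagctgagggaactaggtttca
Gpm6a, downstream start, chr8:54954478-54954727, plus strand: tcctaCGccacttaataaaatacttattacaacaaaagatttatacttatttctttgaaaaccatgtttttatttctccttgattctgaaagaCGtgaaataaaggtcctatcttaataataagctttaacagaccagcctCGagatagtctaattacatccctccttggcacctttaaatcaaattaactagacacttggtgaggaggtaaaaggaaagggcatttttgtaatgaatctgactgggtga
Gpm6b, chrX:166238693-166238942, plus strand: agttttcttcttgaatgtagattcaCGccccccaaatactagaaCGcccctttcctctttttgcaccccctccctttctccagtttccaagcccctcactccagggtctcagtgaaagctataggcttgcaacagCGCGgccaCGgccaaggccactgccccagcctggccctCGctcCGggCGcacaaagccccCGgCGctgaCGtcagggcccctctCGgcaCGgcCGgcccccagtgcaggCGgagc
The upstream Gpm6a promoter held 1 CpG at a GC content of 44.4%, and the downstream one 3 CpG at 33.6%. Among 32851 RefSeq promoters of the same length, the median was 6 CpG and 52.4% GC, and 3.52% had a lower GC content than the downstream Gpm6a promoter. The Gpm6b promoter held 15 CpG at 63.2% GC. Both strands were searched for TATAAA (in 12.4% of all promoters), CCAAT (in 33.8%) and GGGCGG (in 32.7%). The only match was TATAAA on the opposite strand, 211 bases before the downstream Gpm6a start. Counts per gene do not separate the starts, so these data do not say which of them was used. The upstream start lies within Wdr17, a gene of the opposite strand that spans 54629055 to 54887184.

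Each library held 4090224 to 4569578 estimated counts, 17585990 over the 4 animals. Levels are given as CPM, the estimated count over its column sum, scaled to 1e+06. For a gene listed at 0, the upper limit set by 3 counts was 0.657 to 0.733 CPM in a library and 0.171 CPM over the group, for counting error only. Between pairs of libraries the chi-square per gene was 10.7 to 26.2, so no pair agreed within sampling noise as one library deposited again would. The labelled cell type was read beside its markers. The lists were chosen with earlier results of these data known, so this is no independent check. All 16 genes of the mesothelial list were above 1 CPM, with a median of 568 CPM, and so were 10 of the 11 genes of the fibroblast list. Of all genes in the deposited table, 24.7% were above 1 CPM. The summed mesothelial level was 1.03, 0.771, 0.801 and 1.00 times the summed fibroblast level in animals 1 to 4. Most of that fibroblast level was Dcn.

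Gpm6a was among the most abundant transcripts of these cells. Its level was 2214 CPM in animal 1, 2228 in animal 2, 1653 in animal 3 and 2731 in animal 4, from 10115, 9742, 7526 and 11171 estimated counts. Animals 1 and 2 were nearly equal, animal 3 was the lowest and animal 4 the highest. The mean was 2206 ± 441 CPM (SD, n = 4), and the highest animal stood 1.65-fold above the lowest. Gpm6a ranked 51 of 48425 genes by mean CPM, above 99.8% of the genes with a value, and took 0.221% of all counts. Per kilobase of median transcript length, the scale on which genes are compared below, its level was 686 ± 137 CPM per kb (SD, n = 4), rank 211 of 47597 genes with a length. A one-sided quasi-likelihood test of edgeR against 1 CPM gave an adjusted p of 1.31e-39 for Gpm6a. The size of that p depended on the method. It was 1.33e-17 with a minimum of 10 counts (edgeR) and 2.92e-06 with voom weights (limma). The level of 1 CPM was passed by 11943 of 48425 genes (24.7%). A gene that did not pass is not shown to lie at or below 1 CPM. Gpm6a has 1 transcript, so its value does not change with the length chosen, while genes with longer variants fall when the longest is used. Since the sort selected GPM6a protein, the test says only that the transcript was there.

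The genes next to Gpm6a in the order of mean CPM were Upk1b (2225 ± 241), a uroplakin of the mesothelial list, and Ifitm3 (2210 ± 321), an interferon-induced membrane protein, both above it. Just below it came Gm29216 (2201 ± 362), a pseudogene, and Sept2 (2163 ± 252), a septin (all SD, n = 4). These 4 were named for their place in that order, and the order of all 5 lies within the spread between animals. It on the CPM scale also reflects transcript length, which ranges from 492 bases for Gm29216 to 3215 for Gpm6a. Per kilobase all 4 stood higher than Gpm6a, with Upk1b at 1891 and Gm29216 at 4473 CPM per kb, but Sept2 fell below it when its longest transcript was used (572 CPM per kb).

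Gpm6b was barely detected. Its level was 0 CPM in animal 1, 2.24 in animal 2, 1.26 in animal 3 and 0.469 in animal 4. These rest on 0, 10, 6 and 2 counts, 18 in all. Animals 2 and 3 were the highest and animal 1 had no count. For animal 1 the limit of 3 counts was 0.657 CPM. The 95% counting intervals (exact Poisson) ran from 1.10 to 4.21 CPM in animal 2, 0.483 to 2.87 in animal 3 and 0.0592 to 1.77 in animal 4, and these 3 overlapped. The limit of animal 1 lay below the interval of animal 2. The mean was 0.993 ± 0.981 CPM (SD, n = 4), and without animal 2 it was 0.577 CPM. Gpm6b was not above 1 CPM (edgeR, adjusted p = 0.997; unadjusted p = 0.485), and the pooled counts gave 1.02 CPM (0.607 to 1.62). These counts neither place Gpm6b above 1 CPM nor show that the transcript was absent.

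Gpm6b ranked 13739 of 48425 by mean CPM and 15987 of 47597 per kilobase, at 0.317 ± 0.314 CPM per kb. Its neighbours in the order were Gen1 (0.995 ± 0.611), a Holliday junction resolvase, and Zpld1 (0.994 ± 1.03) above, and Frmd4a (0.992 ± 0.795) and Gm37906 (0.992 ± 0.787) below (CPM, SD, n = 4). They too were named for their place in the order, and each rests on 17 or 18 counts.

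**Figure D1:**
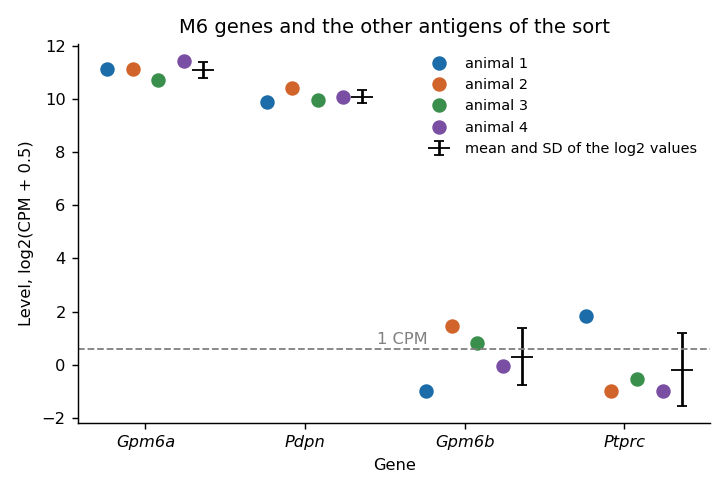
Levels of Gpm6a, Gpm6b and the other genes of the sort, Pdpn and Ptprc, in each of the 4 animals, as log2(CPM + 0.5) with the mean and SD of those values and a dashed line at 1 CPM. Gpm6a and Pdpn lie between 937 and 2731 CPM in every animal, while Gpm6b and Ptprc lie between 0 and 3.05.

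Gpm6a exceeded Gpm6b in 4 of 4 animals. The difference of log2(CPM + 0.5) was 12.11 in animal 1, 9.67 in animal 2, 9.87 in animal 3 and 11.46 in animal 4. It was largest where Gpm6b had 0 or 2 counts. The mean difference was 10.78 on the log2 scale (SD 1.20, n = 4), and p was 0.13 by an exact permutation of signs (two-sided), the smallest that 4 animals allow. In linear terms Gpm6a was 995-fold higher in animal 2, 1310-fold in animal 3 and 5820-fold in animal 4. In animal 1 it was at least 3372-fold higher, against the same limit of 3 counts (0.657 CPM). Over the pooled counts the ratio was 2142 (95% interval 1355 to 3614), or 2084 per kilobase. Both intervals cover counting error only.

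**Figure D2:**
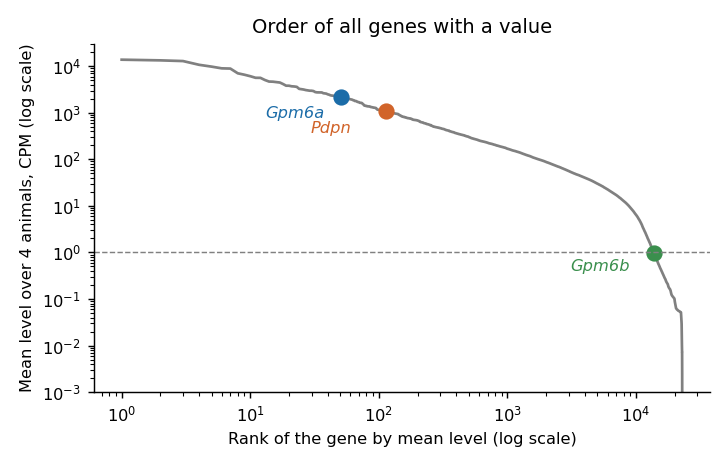
Mean level over 4 animals, in CPM on a log axis, against rank among all genes with a value, also on a log axis. Gpm6a stands at rank 51 and Pdpn at 114, and Gpm6b stands at rank 13739, just below the dashed line at 1 CPM.

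The other antigens of the sort were read beside Gpm6a. Pdpn, which encodes podoplanin, a mucin-type glycoprotein of mesothelium and lymphatic vessels, was at 937, 1359, 1000.2 and 1079.8 CPM in animals 1 to 4. Its highest animal was animal 2, where Gpm6a was near its own mean, and its lowest was animal 1. Mean Pdpn was 1094 ± 186 CPM (SD, n = 4), rank 114. In CPM, Gpm6a was higher than Pdpn in 4 of 4 animals, by a mean log2 difference of 1.00 (SD 0.33; exact permutation of signs, p = 0.13, the smallest possible). The direction depended on length, since Pdpn transcripts are shorter. Divided by median transcript length, the difference was -0.31, and divided by the longest transcript it was 0.18. Per kilobase of median length Pdpn stood at 848 ± 144 and Gpm6a at 686 ± 137 CPM per kb, so the order of these antigen transcripts was not settled. Ptprc, which encodes CD45 and was selected against, was at 3.05, 0, 0.187 and 0 CPM. Its 15 counts came almost all from animal 1, and it was not above 1 CPM (edgeR, adjusted p = 0.997).

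Set against mesothelial genes within each animal, Gpm6a was close to Msln, which encodes mesothelin, in CPM, with a mean log2 difference of -0.04 (SD 0.18). Per kilobase it was lower than Msln, by 2.07 on the log2 scale for median and by 0.61 for longest transcripts. Against Upk3b, which encodes uroplakin 3b, the difference was -0.93 (SD 0.28) in CPM and -0.79 per kilobase, lower in 4 of 4 animals. These differences were described and not tested.

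The deposited table also lists 5 loci inside the introns of Gpm6a on the same strand, all of the annotation class for transcripts still to be tested by experiment. Gm45263, Gm45265 and Gm45264 lie in intron 1, which spans 82012 bases, Gm45262 in intron 2 and A230085B16Rik in intron 6. Together they cover 11186 bases and gathered 59 counts. Their summed level was 2.98, 2.85, 3.98 and 3.36 CPM in animals 1 to 4, highest in animal 3, where Gpm6a was lowest. Per kilobase this was 0.294 ± 0.0456 CPM per kb, against 686 ± 137 for the spliced Gpm6a transcript (SD, n = 4). The ratio within an animal ran from 1444 to 2824. These 5 loci sample 11186 intronic bases, and other intron sequence was not analysed here.

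**Figure D3:**
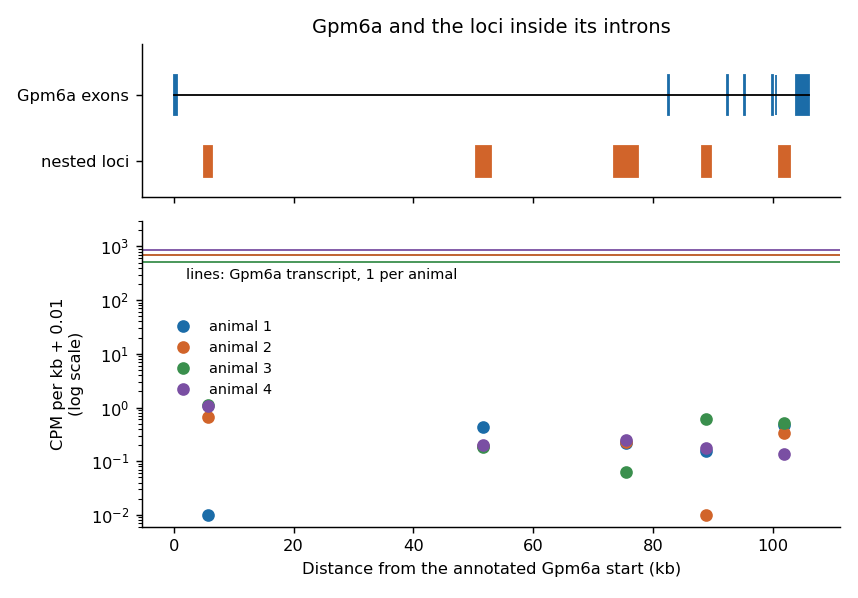
Map of Gpm6a by distance from its annotated start, with its 7 exons and the 5 intronic loci above the level of each locus (points) and of the Gpm6a transcript (lines) per animal, in CPM per kb on a log axis with a small constant added so that 0 can be drawn. The Gpm6a lines of animals 1 and 2 nearly coincide. Gpm6a lies above the summed intronic loci by 1444- to 2824-fold within an animal.

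By the GENCODE bounds, the genes nearest to Gpm6a on chromosome 8 were low, though its upstream RefSeq start lies within Wdr17. Wdr17, 67658 bases before the GENCODE start, was at 2.51, 1.21, 0.306 and 2.40 CPM. 9330121K16Rik, 12377 bases after Gpm6a, averaged 0.512 ± 0.477 CPM. The next gene on either side, n-R5s98 and Gm8734, was listed at 0 in all libraries. None of these 4 genes passed 1 CPM. Of the 4 neighbours of Gpm6b on chromosome X, 3 stood higher than Gpm6b itself in CPM. Ofd1, a centrosomal gene 1044 bases after it on the other strand, was at 5.70 ± 3.01 CPM. Gemin8, of the SMN complex and 48398 bases before it, was at 16.9 ± 4.88, and Trappc2, of a vesicle tethering complex and 51585 bases after it, at 28.6 ± 6.50 (SD, n = 4). These 3 passed 1 CPM, and the pseudogene Gm15227 was listed at 0.

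Gpm6a was next compared with unrelated families whose proteins also cross the membrane 4 times. Counts of genes above 1 CPM are read against the 24.7% of all genes and a median over all genes of 0 CPM. Of the 8 genes of the PMP22 and EMP family, which includes a peripheral myelin protein and the epithelial membrane proteins, 6 were above 1 CPM, with a median of 39.1 CPM. Pmp22 (609 ± 35.1), Emp3 (453 ± 90.4), Emp2 (217 ± 59.8) and Perp (51.0 ± 3.20) had the highest CPM, and Lim2 and Nkg7 were at 0. Per kilobase Pmp22 (830 ± 47.9) and Emp3 (753 ± 150) stood above Gpm6a (686 ± 137 CPM per kb). With the longest transcripts they stood below it, at 334 and 577 CPM per kb, so their order with Gpm6a was not settled.

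Of the 24 genes of the MARVEL family, which includes the synaptophysins and the MAL and CMTM proteins, 13 were above 1 CPM, with a median of 3.7 CPM. The highest were Sypl (282 ± 73.9), Plp2 (273 ± 24.0), Syngr2 (174 ± 41.5) and Cmtm6 (55.5 ± 5.37 CPM). Plp2, despite a name that recalls the proteolipid proteins, belongs to this family. None of the MARVEL genes reached Gpm6a per kilobase: Sypl was at 405, Plp2 at 236 and Syngr2 at 222 CPM per kb. Mal, Mall, Cmtm5, Syp, Sypl2 and Syngr3 were listed at 0. Syp, the synaptophysin of synaptic vesicles, and Mal, of myelin, were thus not detected in the libraries where Gpm6a had 7526 or more counts.

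**Figure D4:**
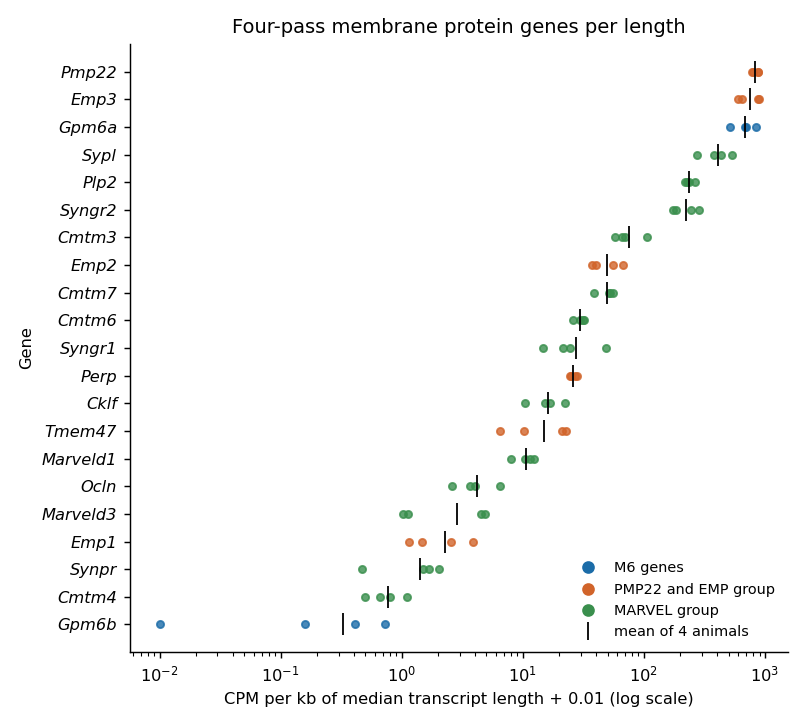
Levels per kilobase of transcript of Gpm6a, Gpm6b and the genes above 1 CPM of the PMP22 and EMP family and the MARVEL family, with points for animals and bars for means, in CPM per kb of median transcript length on a log axis with a small constant added. Pmp22 and Emp3 lie beside Gpm6a, while Gpm6b, at 0.317 CPM per kb, lies far below it.

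Of 11 genes reported as partners of the M6 proteins, 7 were above 1 CPM, with a median of 7.87 CPM. The list mixes partners named for either protein, mostly from neurons. Among the small GTPases, Rap2b was at 139, 205, 214 and 156 CPM, Rac1 averaged 104 ± 20.4 and Rap2a 40.7 ± 8.68, and Rap2c was lower at 9.82 ± 4.86. Rap2b was lowest in animal 1 and highest in animal 3. Rufy3, an adaptor of neuronal polarity, was at 5.77 ± 2.99 CPM, and Tiam2, the Rac activator named with it, was at 0.43 ± 0.384 and did not pass the test. The kinase Pak1 averaged 1.96 ± 2.39 CPM with 5.50 in animal 2 and at most 1.29 in the others, and did not pass either. Coro1a, a coronin of leukocytes, and Oprm1, the mu opioid receptor, were listed at 0.

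Slc6a4, which encodes the serotonin transporter, a reported partner of M6b, was at 8.19, 8.35, 7.49 and 7.46 CPM in animals 1 to 4. It lay within a narrow range in all 4 animals, averaged 7.87 ± 0.466 CPM (SD, n = 4) and passed the test (edgeR, adjusted p = 4.19e-10). The values rest on 37, 37, 34 and 31 estimated counts, too few for the narrow range to show a steady level. Per kilobase Slc6a4 was at 3.23 CPM per kb against 0.317 for Gpm6b. Zdhhc17, the palmitoyltransferase reported to modify M6a, was at 11.3, 12, 24.7 and 16.3 CPM. It was highest in animal 3, where Gpm6a was lowest, and averaged 16.1 ± 6.13.

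Palmitate is added by the Zdhhc enzymes and removed by thioesterases. Of 24 Zdhhc genes 16 were above 1 CPM, with a median of 10.1 CPM, led by Zdhhc20 (64.6 ± 10.1), Zdhhc4 (47.1 ± 11.6), Zdhhc12 (38.3 ± 2.33) and Zdhhc16 (30.9 ± 8.17). Zdhhc11, Zdhhc19 and Zdhhc25 were listed at 0. All 8 depalmitoylases passed, with a median of 20.3 CPM. The lysosomal thioesterase Ppt1 (142 ± 20.2) and the cytoplasmic Lypla1 (66.8 ± 12) and Lypla2 (59.3 ± 9.63) were the highest, followed by Abhd10 (22.4 ± 6.51). All of these enzymes were far below Gpm6a per kilobase, with Ppt1 at 79.2 CPM per kb.

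M6a is known for inducing filopodia, and 19 of 23 genes of filopodia and actin protrusions were above 1 CPM, with a median of 48.7 CPM. The highest were Ezr (742 ± 132), which encodes the microvillar linker ezrin, the actin-severing Cfl1 (479 ± 62.6), the GTPase Cdc42 (470 ± 73.8) and profilin Pfn1 (400 ± 54.2 CPM). None of them reached Gpm6a per kilobase. The motor of filopodial tips, Myo10, averaged 1.73 ± 1.68 CPM and did not pass the test. Of 9 genes of membrane rafts and cholesterol-binding protrusion proteins 7 passed, with a median of 71.8 CPM. Cav1 (1282 ± 262), the scaffold of caveolae, Flot2 (179 ± 12.5), Stom (144 ± 16.4) and Flot1 (91.8 ± 9.04) led them. Cav1 stood above Gpm6a at 2717 CPM per kb, and below it at 467 with its longest transcript. Prom2 was listed at 0.

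Genes of neurons and glia, where the M6 proteins are best known, were then read in the same libraries. Of 17 neuronal genes 1 was above 1 CPM, against 24.7% of all genes. That gene was Stmn2, a microtubule regulator, at 122, 53.5, 101 and 81.0 CPM. It was lowest in animal 2. Snap25, Syn1, Syt1, Nefm, Elavl4, Slc17a7, Gad1 and Chat, 8 genes that include those of synapses, neurofilaments and transmitter identity, were listed at 0. Without animal 1, Tubb3, which is at 0 there, passed as well (edgeR, adjusted p = 0.0366). The neuronal sum was 60.4 to 128 CPM per animal, most of it Stmn2. Tubb3 (2.0 ± 1.37), Prph (1.47 ± 0.684) and Gap43 (0.871 ± 0.758 CPM) were next and did not pass.

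Of 17 genes of myelinating and peripheral glia 5 were above 1 CPM, a share near the 24.7% of all genes. They were Mbp (72.9 ± 14.5), Erbb3 (15.0 ± 3.51), Cnp (14.3 ± 6.57), Mobp (5.48 ± 4.02) and Gfap (3.35 ± 1.94 CPM). Mog, Sox10, Cdh19, Foxd3, Ncmap, Olig1 and Olig2, among them the transcription factors that define these lineages, were listed at 0, and the sum was 87.9 to 135 CPM. Gfap lost its call without animal 1 (edgeR, adjusted p = 0.0513), and Mobp lost it with voom (limma, adjusted p = 0.337). Gpm6b, at 0, 2.24, 1.26 and 0.469 CPM, was lowest in animal 1, where the glial sum was also the lowest (87.9). The 5 glial genes above 1 CPM did not share this order. Mbp and Mobp were lowest in animal 1, Gfap was highest there, and Erbb3 and Cnp were lowest in animal 4. The other values of Gpm6b did not follow the glial sum (117, 135 and 128 CPM in animals 2 to 4).

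Markers of other cells of the peritoneal wall were read beside both members. The 11 fibroblast genes had a median of 107 CPM. Their sum was 15401, 22616, 20114 and 15216 CPM, mostly Dcn, a proteoglycan gene that averaged 12889 CPM, with Col3a1, Col1a2 and Col1a1. The others ranged from Col14a1 (281 CPM) down to Thy1 (26.5), Pdgfra (25.5), Dpt (7.97) and Pi16 (1.55), which did not pass the test. The fibroblast sum was highest in animals 2 and 3, as Gpm6b was. Gpm6a was lowest in animal 3 and highest in animal 4, which had the lowest fibroblast sum, but animals 1 and 2 had nearly equal Gpm6a at 15401 and 22616 CPM of fibroblast genes. How far other cells contribute to the level of either member was not tested.

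Against the mesothelial sum of 15821, 17448, 16105 and 15223 CPM, Gpm6a was 14.0, 12.8, 10.3 and 17.9 per 100 CPM in animals 1 to 4. The order of animals changed for the middle pair only, so the low value of animal 3 and the high value of animal 4 remained. Of 9 endothelial genes 3 were above 1 CPM (Esam at 359 ± 12.4, Kdr at 49.2 ± 14.1 and Tek at 2.64 ± 3.47). Pecam1 (0.94 ± 0.954) did not pass, and Cdh5 and Emcn were listed at 0. The endothelial sum was 388 to 425 CPM, most of it Esam. Tek did not pass without animal 4 (edgeR, adjusted p = 0.983). Smooth muscle and pericyte genes passed in 5 of 8, led by Acta2 (96.0 ± 42.8), Kcnj8 (26.8 ± 14), Des (24.7 ± 11.8) and Tagln (18.7 ± 16.5), with Lmod1 at 0 and a sum of 125 to 233. Leukocyte genes passed in 2 of 10, Csf1r (34.5 ± 5.22) and Cd68 (12.5 ± 5.23). Lyz2 (2.23 ± 2.37) and Cd79a (1.53 ± 2.76) did not pass, Itgam was at 0 and the sum was 41.0 to 60.2. These counts of genes above 1 CPM stand against 24.7% of all genes.

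Gpm6a varied between animals by a coefficient of variation of 20.0% and an SD of 0.30 on the log2 scale. Among the 95 genes within 2-fold of its mean level, 70 (73.7%) varied less, and their median SD was 0.22. It was thus on the more variable side for its level. By the same measure Pdpn varied more than 61.7% of 196 genes and Upk3b, with a coefficient of variation of 5.72%, more than 10.9% of 46. Krt19, a keratin of the mesothelial list, had a coefficient of variation of 41.5%.

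Genes whose levels followed Gpm6a most closely over the 4 animals were sought by the root mean square difference of log2(CPM + 0.5), after each gene's own mean was subtracted. Cfb, which encodes complement factor B, was the closest of 8791 genes with a mean of at least 10 CPM, at 0.0187. Its levels were 3234, 3157, 2338 and 3889 CPM, low in animal 3 and high in animal 4 as for Gpm6a. Plekhm1 (0.0190), of lysosome trafficking, 4833439L19Rik (0.0311), Carhsp1 (0.0328) and Ppil4 (0.0357) followed. Of the genes compared, 77 lay within 0.1, and the median was 0.402. The measure rests on 4 animals, and each value shares its library with all others, so this is a description.

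For Gpm6b the closest were Stx6 (0.118), a syntaxin, Htra3 (0.126), a serine protease, Hspa1a (0.144), a heat shock protein, Ndfip1 (0.17) and Tmem100 (0.180), and 0 of 8792 lay within 0.1. Hspa1a was at 67.3, 292, 190 and 105 CPM, highest in animals 2 and 3. The Gpm6b profile rests on 18 counts.

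**Figure D5:**
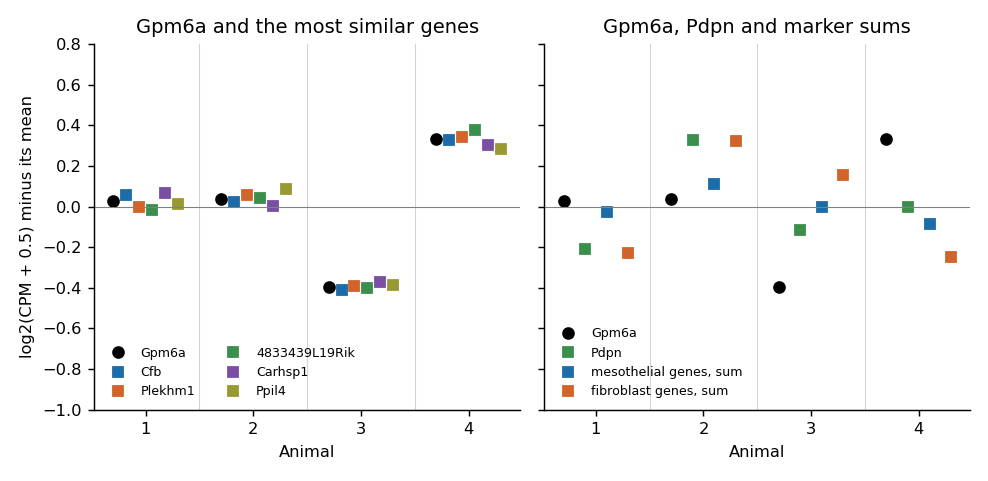
Difference of log2(CPM + 0.5) from each gene's own mean in the 4 animals, for Gpm6a with the 5 genes of most similar profile, and for Gpm6a with Pdpn and the sums of the mesothelial and fibroblast lists. Gpm6a and the 5 genes are low in animal 3 and high in animal 4, while Pdpn is highest in animal 2.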

How the data were processed

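RNA of sorted mesothelial cells was sequenced in 4 samples (1 group). The deposited table holds estimated counts by gene symbol, 1 column per animal, which the authors made with tools that the submitters' processing notes list without roles: kallisto 0.43.1, edgeR 3.24.3, limma 3.38.3 and build GRCm38.p5. The library strand and the summing of transcripts to genes are not given in the sources used here. Estimated counts depend on transcript length and on how reads shared by transcripts were split.

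From these, CPM were computed over column sums (4569578, 4371817, 4554370 and 4090224 for animals 1 to 4) and divided by the median GENCODE M21 transcript length where genes are compared. Counts were rounded to whole numbers, and edgeR 4.0.16 under R 4.3.3 tested each level against 1 CPM (one-sided quasi-likelihood F test of the intercept, Benjamini-Hochberg over 48425 genes, threshold 0.05). The statistic was tested on simulated data. Log2 differences used a pseudocount of 0.5 CPM and an exact permutation of signs (two-sided). The labels number 4 samples, taken here as 4 animals, and state no litter, sex or batch. The p-values therefore rest on these samples alone, and those of edgeR and limma also on a variance shared across genes. Alternatives were TMM, DESeq2 1.42.0 size factors, a minimum of 10 counts, limma 3.58.1 with voom, other pseudocounts, length scaling and leaving out each animal. Division by the longest transcript was added after seeing the data.

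The members and the 15 gene lists were chosen with earlier results of these data known. Named were the members, the other sort antigens, in each list the 4 genes with the highest CPM, those at 0 and the reported partners, the 5 most similar profiles, and the neighbours by level and on the chromosome. Other genes named were chosen after their values were seen. A planned comparison of the encoded proteins was replaced by one of coding sequences (match 1, mismatch -1, gap opening -4, gap extension -0.5). Some genes of the family and the lists are not reported here.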

Additional observations from a re-analysis of the deposited data

Results flagged for a closer look

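Neither Gpm6a nor Gpm6b had an animal that stood apart by Dixon's criterion, which divides the gap of the highest or lowest animal to its nearest neighbour by the whole range and sets it against a 95% critical value. Of 89 genes tested with them, 7 had such an animal, and chance flags about 1 in 20. The 89 did not take in all genes of the lists, so other genes with an animal apart are not counted. Among those not counted, Pak1 was at 5.50 CPM in animal 2 against 0.505 to 1.29. Thy1 was at 10.5 CPM in animal 2 against 30.4 to 33.8.

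Among genes that bear on Gpm6a directly, Ptprc (CD45) had a gap of 0.939, with 3.05 CPM in animal 1 and 0 to 0.187 in the others. The intronic locus Gm45265 had 0.908, with 1.06 CPM in animal 1 against 0.428 to 0.486. Gm45264, also intronic, had 0.854, with 0.212 CPM in animal 3 against 0.840 to 0.947. These 3 rest on 15, 11 and 13 counts.

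The palmitoyltransferase Zdhhc20 had 0.888, with 49.6 CPM in animal 1 against 68.5 to 70.9. The endothelial adhesion gene Esam had 0.853, with 377 CPM in animal 1 against 351 to 355. Tek, an endothelial receptor, had 0.863, with 7.80 CPM in animal 4 against 0.579 to 1.57. The B cell gene Cd79a had 0.922, with 5.66 CPM in animal 1 against 0 to 0.442.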

How the results depend on the processing

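Of 174 values recomputed under alternatives, 172 kept their direction and their side of the threshold or stayed within the range set for a count or a level. The exceptions were Gpm6a against Pdpn, which turned from 1.00 to -0.31 on the log2 scale when divided by median transcript length (division by a length favours the shorter transcript), and the neuronal genes above 1 CPM, which ranged from 1 to 2 as each animal was left out. Leaving out each animal gave 2031 to 2391 CPM for Gpm6a and 0.577 to 1.32 for Gpm6b. Gpm6a against Gpm6b ranged from 10.23 with a pseudocount of 1 CPM to 11.70 with 0.1. Genes above 1 CPM numbered 11494 with voom and 12196 with the minimum count, against 11943. Of the recomputed values, 120 were counts of a list, allowed to move 1.5-fold, so calls of single genes could change. Marveld3 lost its call with voom (limma, adjusted p = 0.0703) and Evl without animal 1 (edgeR, adjusted p = 0.0587). Fmnl2, Lyz2, Prx and Zdhhc9 gained a call with the minimum count (edgeR, adjusted p = 0.0204, 0.0455, 0.0377 and 0.0299). Fmnl2, first at 0.0520, also passed with TMM, DESeq2 size factors and without animal 3 or 4 (edgeR, adjusted p = 0.0478, 0.0480, 0.0331 and 0.0218). Prx also passed without animal 1 (edgeR, adjusted p = 0.0215) and Zdhhc9 with voom (limma, adjusted p = 0.0282). Filopodia and actin genes above 1 CPM ranged from 18 to 20 as each animal was left out. No paired analysis was possible because there is 1 group and so no groups to pair by replicate number; differences between genes were taken within each animal. Depth limits Gpm6b, which has 18 counts.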
